A study of Mus musculus with 9 samples.

Results

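The major histocompatibility complex (MHC) class I genes described here are 9 heavy-chain genes, H2-K1, H2-D1, H2-Q4, H2-Q5, H2-Q6, H2-Q7, H2-M3, H2-T22 and H2-T23, and B2m, which encodes their shared light chain. They were chosen by a measured difference: several H2-Q and H2-T genes differed between macrophages lacking SHP2 and macrophages given the SHP2 inhibitor SHP099. They are 10 of the 54059 genes in the deposited table. RNA was sequenced from peritoneal macrophages of C57BL/6 mice aged 8 weeks by the labels and 8 to 10 weeks by the study's text, in 3 groups of 3 libraries. The mice received 1 ml of starch broth in the peritoneal cavity, the cells were collected 3 days later, and the adherent cells were cultured in DMEM with 10% fetal bovine serum. By the study's text all groups were given imiquimod (IMQ), an agonist of Toll-like receptor 7, for 4 h, so no unstimulated group exists. The dose is given as 10 µg/ml for the SHP099 comparison and is not stated for the sequenced M-Shp2-/- cells. The wild-type group received IMQ alone. The M-Shp2-/- group (SHP2lyz2-/- in the labels) came from mice with a floxed Shp2 gene, Ptpn11, and a Cre recombinase driven by Lyz2, which acts in monocytes, macrophages and granulocytes. The SHP099 group was wild-type cells pretreated for 2 h with 10 µM SHP099, which holds the phosphatase in its closed, inactive form. Nothing in the sources says whether each library came from a separate mouse, so every p-value below measures only the spread between libraries.

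Class I molecules carry peptides from inside the cell to its surface, where CD8 T cells and natural killer (NK) cells read them. The classical molecules are made by almost every nucleated cell, while the nonclassical Q, T and M molecules vary less between individuals and serve narrower tasks. In macrophages, interferons raise class I transcription together with the genes for peptide cutting, transport and loading, through factors of the IRF, STAT and NF-kappaB families and the coactivator NLRC5.

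Values are in FPKM, fragments per kilobase of transcript and per 1000000 reads counted. Low values fell on whole reads when the length was taken as the mean of a gene's annotated transcripts. The reads behind the normalization, worked out from the steps between low values, numbered from 39842886 to 50981081 per library. All 10 class I genes passed the filter of a mean of at least 1 FPKM, which 11450 genes passed, and each rested on 1343 to 354106 reads per library. Gene positions are those of GENCODE M21 on GRCm38.

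Ptpn11 (ENSMUSG00000043733, chr5:121130533-121191397) was used to check the labels. It measured 45.8, 44.0 and 40.0 FPKM in wild-type replicates 1, 2 and 3, 18.6, 17.8 and 18.9 in M-Shp2-/- cells, and 43.0, 42.1 and 39.6 with SHP099. Every M-Shp2-/- library lay below every other library, and the SHP099 libraries overlapped wild type. The log2 fold change in M-Shp2-/- cells was -1.19 ± 0.10 (SE, n = 3 per group, limma adjusted p = 0.0168), and with SHP099 it was -0.05 ± 0.09 (adjusted p = 0.729). Macrophage markers were detected in all 9 libraries, at very different levels. The summed level of 8 such genes ran from 7468 to 13736 FPKM, most of it from Lyz2, the lysozyme gene, with a mean of 7886 FPKM. Fcgr1, named after its values were seen, measured only 0.701 to 5.79 FPKM, and Mertk 3.28 to 13.3. Lyz2 was lower in every M-Shp2-/- library than in every wild-type library, at -0.76 ± 0.16 log2 (adjusted p = 0.388). Lyz2 also drives the Cre recombinase of the M-Shp2-/- mice, so it is not a plain macrophage marker there. The part of the Cre in its level, and in the marker sum, was not tested. Of the macrophage markers, Csf1r, the receptor for the growth factor CSF1, rose with SHP099 by 1.38 ± 0.22 log2 (adjusted p = 0.0222). It was the only marker of the 8 with an adjusted p no higher than 0.05, against 6.96% of all genes with SHP099. In M-Shp2-/- cells 6 of the 8 were negative, with a median of -0.44 beside -0.40 for the class I genes, and Mertk, like Lyz2, was below wild type in every library (-0.97 ± 0.27, adjusted p = 0.454). The log2 values with SHP099 were positive for 3 and negative for 5, with a median of -0.23, and Cd68 was below wild type in every SHP099 library (-0.14 ± 0.09, adjusted p = 0.395). Mertk and Cd68 were named after their values were seen.

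Markers of other cells were uneven. Those of T, NK and dendritic cells were low. The highest single values came from stromal or mesothelial markers and, in M-Shp2-/- replicate 3, from a B cell marker. Over the 9 libraries the most abundant marker averaged 75.2 FPKM in the stromal or mesothelial list, 58.3 in the neutrophil list and 36.4 in the B cell list. The 6 T cell markers summed to 2.11, 3.60 and 7.72 FPKM in wild-type replicates 1 to 3, to 2.51, 1.88 and 4.80 in M-Shp2-/- cells, and to 7.31, 5.78 and 5.71 with SHP099. Lck was the most abundant of them, at a mean of 1.73 FPKM, and Cd3e, named after its values were seen, was at 0 in at least 1 library. The 4 NK cell markers summed to 0.117, 1.19 and 3.35 FPKM in wild type, 0.0332, 0.0671 and 1.04 in M-Shp2-/- cells and 0.571, 0.864 and 0.634 with SHP099. Each of these 4 genes was at 0 in at least 1 library, Nkg7 being the highest of them with a mean of 0.522 FPKM. Both sums were thus highest in wild-type replicate 3. Of the B cell markers, Ighm, the immunoglobulin mu chain, was the most abundant and measured 5.97, 13.6 and 44.8 FPKM in wild type, 19.9, 9.84 and 175 in M-Shp2-/- cells and 19.3, 12.8 and 26.5 with SHP099. Other B cell markers had another order. Cd79a, Cd79b and Ms4a1, named after their values were seen, were highest in M-Shp2-/- replicate 1, at 3.18, 1.02 and 0.859 FPKM. Within wild type none of these was highest in replicate 3. The 7 stromal or mesothelial markers, led by Col1a1, summed to 64.3, 304 and 39.9 FPKM in wild type, 135, 51.7 and 588 in M-Shp2-/- cells and 362, 138 and 102 with SHP099. The 5 neutrophil markers summed to 35.2 to 96.5 FPKM, nearly all from S100a8, and the other 4 were at 0 in at least 1 library. The 4 dendritic cell markers summed to 0.619 to 1.77 FPKM, Zbtb46 being the highest. The part of these cells in the class I values was not tested, and in bulk RNA fewer cells of a type and less RNA per cell cannot be told apart.

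Wild-type replicate 3 stood apart from the other two wild-type libraries in the class I genes. All 10 were highest there among the 3 wild-type libraries, which held for 20.0% of all genes tested. For 7 of the 10, wild-type replicate 3 was the highest of all 9 libraries, against 6.44% of all genes. The ratio of wild-type replicate 3 to the mean of replicates 1 and 2 ran from 1.25 for B2m to 4.11 for H2-Q6. On the log2 scale the median of this difference was 0.76 over the class I genes and -0.18 over all genes. The 18 interferon-response genes differed more, with a median of 1.82, and all 18 were highest of 9 libraries there. The class I results against wild type are therefore given with and without wild-type replicate 3, and those of other genes in part.

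**Figure D1:**
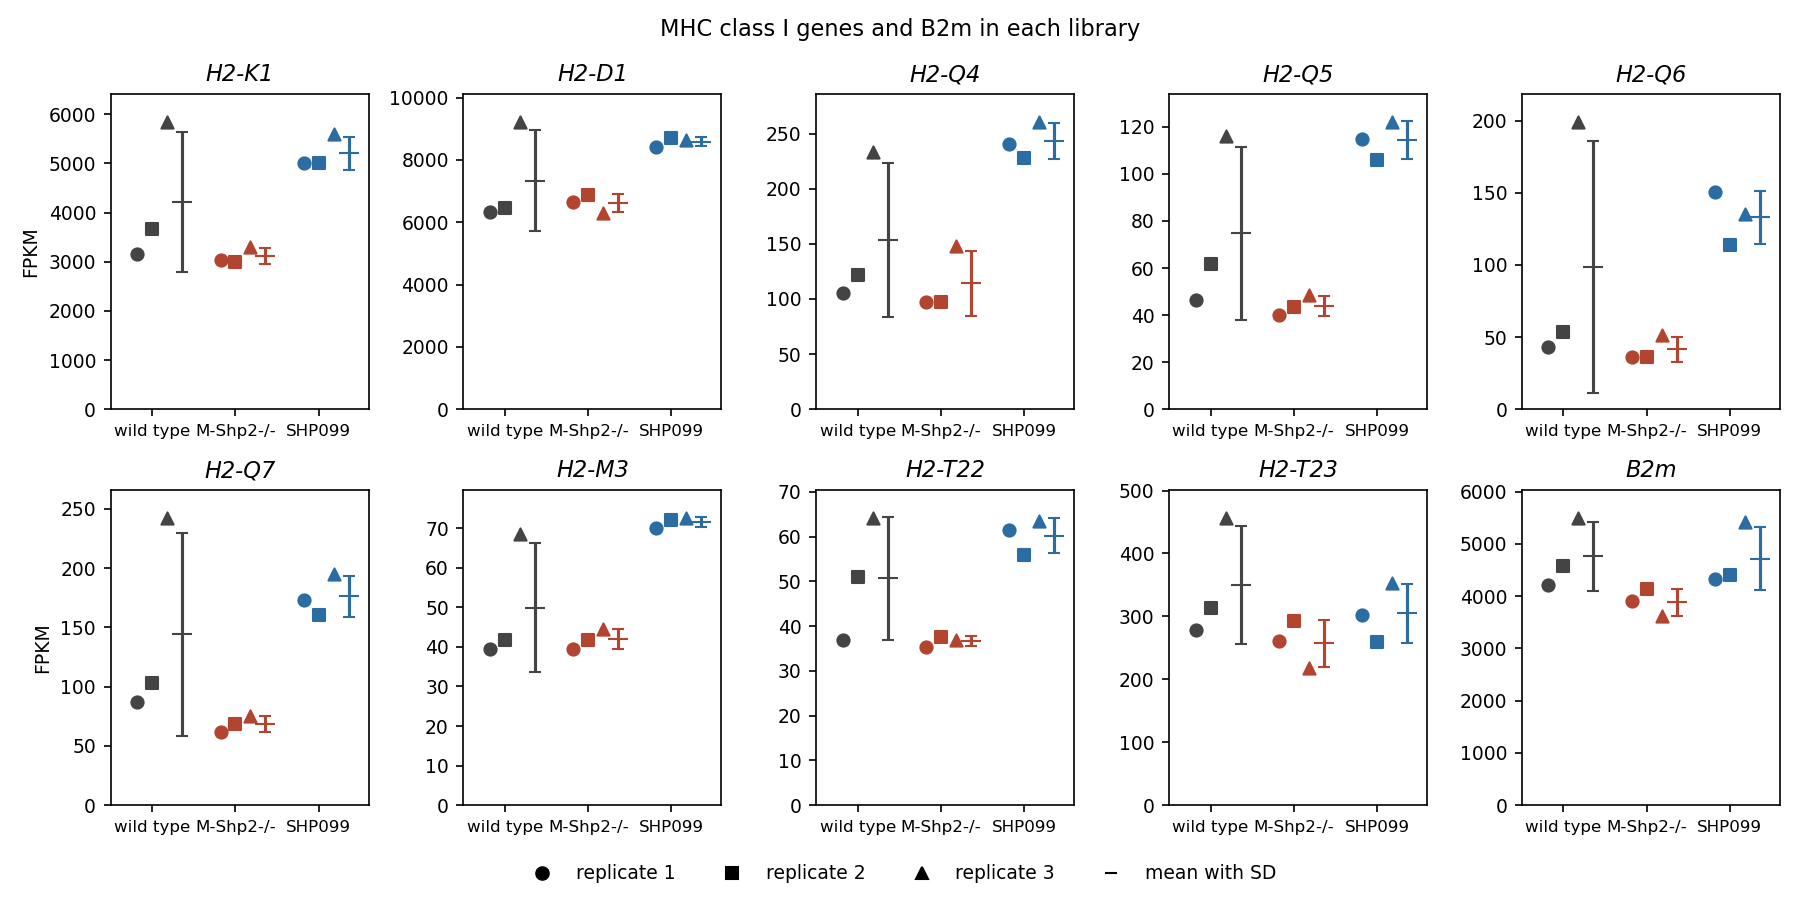
FPKM of each class I gene and B2m in the 3 wild-type, 3 M-Shp2-/- and 3 SHP099 libraries, with markers for replicate number and a bar for the mean and SD of 3 libraries. The highest wild-type point in each panel is replicate 3, and for every gene but H2-T23 the M-Shp2-/- points lie below the SHP099 points.

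Promoter windows from RefSeq (250 bases before to 50 after the transcription start, build GRCm38.p6) were found for 9 of the 10 genes, with no entry for H2-Q5. They were searched on both strands for a motif of the NF-kappaB kind, GGGGATTCC, and a tandem motif of the IRF kind, TTTC repeated after any 2 bases. A further motif of the IRF kind, TTTCACTTC, was chosen after the sequences were seen. Its first 8 letters can also begin a tandem match. GGGGATTCC was present in 4 of 9 (H2-K1, H2-D1, H2-Q6 and H2-Q7) and in 0.25% of all 32851 promoter windows. TTTCACTTC was present in 6 of 9 (the same 4, H2-Q4 and H2-M3) and in 0.505% of all windows. The tandem motif was present in 3 of 9 (H2-T22, H2-T23 and, on the opposite strand, B2m) and in 3.44% of all windows. A match is a description of the letters and not a measured binding site. Only these exact spellings were searched. Close variants of them, also in windows without a match, were not counted. The windows of 6 genes are shown so that classical, Q, M3 and light-chain promoters can be read side by side. They lie at chr17:34000298-34000597 on the minus strand for H2-K1, which has a further window at chr17:34000284-34000583, and on the plus strand at chr17:35379367-35379666 for H2-Q4, chr17:35424600-35424899 for H2-Q6, chr17:35438905-35439204 for H2-Q7, chr17:37269984-37270283 for H2-M3 and chr2:122147437-122147736 for B2m. Each is written 5′ to 3′ along the gene's strand, with motif matches in capitals.
H2-K1: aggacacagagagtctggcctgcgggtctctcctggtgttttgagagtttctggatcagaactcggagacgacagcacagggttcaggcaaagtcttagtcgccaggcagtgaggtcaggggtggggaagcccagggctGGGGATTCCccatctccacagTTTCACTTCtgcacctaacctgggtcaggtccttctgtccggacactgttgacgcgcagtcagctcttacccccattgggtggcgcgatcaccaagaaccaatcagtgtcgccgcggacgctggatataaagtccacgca
H2-Q4: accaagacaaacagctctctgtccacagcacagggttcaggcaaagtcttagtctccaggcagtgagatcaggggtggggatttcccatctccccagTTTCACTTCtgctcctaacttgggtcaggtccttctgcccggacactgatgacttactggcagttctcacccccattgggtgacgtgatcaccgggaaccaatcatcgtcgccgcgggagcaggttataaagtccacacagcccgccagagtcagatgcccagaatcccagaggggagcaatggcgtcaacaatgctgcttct
H2-Q6: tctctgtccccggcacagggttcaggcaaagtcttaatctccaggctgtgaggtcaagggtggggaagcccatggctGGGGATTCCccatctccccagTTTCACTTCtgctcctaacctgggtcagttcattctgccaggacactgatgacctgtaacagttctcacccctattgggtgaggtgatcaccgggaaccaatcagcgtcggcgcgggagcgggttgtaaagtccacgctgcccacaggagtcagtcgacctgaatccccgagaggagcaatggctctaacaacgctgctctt
H2-Q7: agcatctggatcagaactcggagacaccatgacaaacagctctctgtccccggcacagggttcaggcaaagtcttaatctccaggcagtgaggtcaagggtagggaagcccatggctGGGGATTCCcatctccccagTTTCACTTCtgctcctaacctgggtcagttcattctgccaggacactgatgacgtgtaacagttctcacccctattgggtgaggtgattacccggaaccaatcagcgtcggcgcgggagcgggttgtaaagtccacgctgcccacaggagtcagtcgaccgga
H2-M3: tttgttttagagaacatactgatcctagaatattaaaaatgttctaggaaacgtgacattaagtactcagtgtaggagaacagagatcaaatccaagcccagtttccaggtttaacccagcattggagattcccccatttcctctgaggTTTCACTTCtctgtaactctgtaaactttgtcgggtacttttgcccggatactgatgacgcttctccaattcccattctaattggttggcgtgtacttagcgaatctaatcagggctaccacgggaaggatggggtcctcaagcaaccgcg
B2m: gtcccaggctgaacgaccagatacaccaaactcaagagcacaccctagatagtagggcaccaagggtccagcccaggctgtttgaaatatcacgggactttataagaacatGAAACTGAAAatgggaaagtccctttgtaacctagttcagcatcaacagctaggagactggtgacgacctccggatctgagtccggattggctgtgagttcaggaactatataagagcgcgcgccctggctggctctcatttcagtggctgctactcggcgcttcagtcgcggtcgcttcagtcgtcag

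In H2-K1 the match to GGGGATTCC began 111 bases before the start and the match to TTTCACTTC 90 bases before it. The same pair began 173 and 152 bases before the start in H2-Q6, and 133 and 113 bases before it in H2-Q7. Of the exact motifs searched, H2-Q4 and H2-M3 held only TTTCACTTC, 153 and 101 bases before the start. In B2m the tandem motif on the opposite strand spanned bases 139 to 130 before the start.

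**Figure D2:**
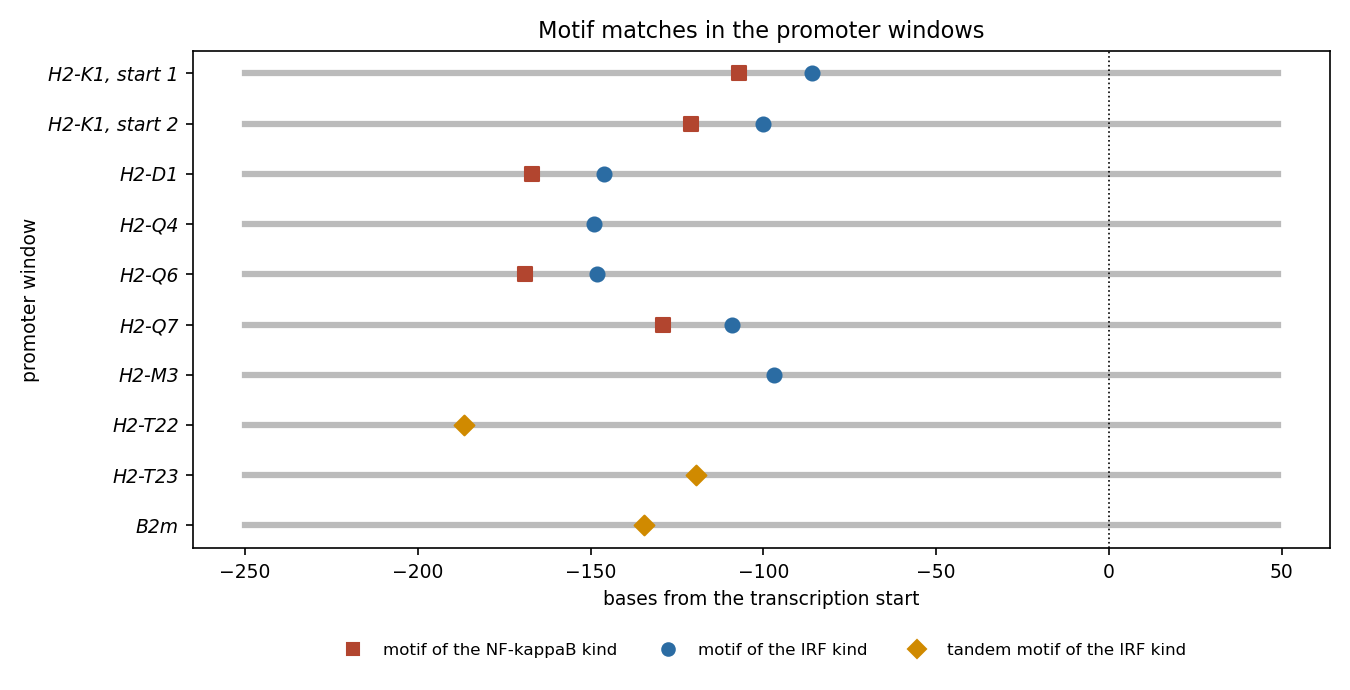
Motif matches in the promoter windows of 9 class I genes, with 2 windows for H2-K1, plotted by distance in bases from the transcription start (dotted line). Squares mark GGGGATTCC, circles TTTCACTTC and diamonds the tandem motif, and every match lies before the start.

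The classical heavy chains were among the most abundant transcripts of these cells. H2-K1 (ENSMUSG00000061232, chr17:33996017-34000347) measured 3161, 3662 and 5839.5 FPKM in wild-type replicates 1 to 3, 3043, 2999 and 3298 in M-Shp2-/- cells, and 4999.5, 5018 and 5591 with SHP099. Wild-type replicates 1 and 2 sat near the M-Shp2-/- libraries, and wild-type replicate 3 sat above all SHP099 libraries. H2-D1 (ENSMUSG00000073411, chr17:35262730-35267499) was the most abundant class I gene and ranked number 3 among all genes in the table by mean FPKM, with values from 6312 to 9213. Its M-Shp2-/- libraries spanned the values of wild-type replicates 1 and 2, and its highest library was wild-type replicate 3. By group, H2-D1 averaged 7334 ± 1628 FPKM (SD, n = 3) in wild type, 6612 ± 284 in M-Shp2-/- cells and 8589 ± 148 with SHP099. H2-K1 and H2-D1 together made up 91.6% to 94.4% of the FPKM summed over the 9 heavy chains in each library.

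The H2-Q genes lie next to each other on chromosome 17. H2-Q6 and H2-Q7 belong to the Qa-2 family, whose best known product is tethered to the membrane by a lipid anchor. H2-Q4 (ENSMUSG00000035929, chr17:35379617-35385290) measured 105, 122 and 233 FPKM in wild type, 97.0, 97.3 and 148 in M-Shp2-/- cells and 240.3, 228 and 260.3 with SHP099. In this gene M-Shp2-/- replicate 3 was above wild-type replicates 1 and 2. H2-Q5 (ENSMUSG00000055413, chr17:35394126-35397800), annotated as a polymorphic pseudogene, measured 46.3, 61.8 and 116 FPKM in wild type, 40.1, 43.5 and 48.5 in M-Shp2-/- cells and 115, 106 and 122 with SHP099. The SHP099 libraries and wild-type replicate 3 formed the high values, and the other libraries did not reach them. H2-Q6 (ENSMUSG00000073409, chr17:35424850-35430055) measured 43.3, 53.5 and 199 FPKM in wild type, 36.5, 36.2 and 51.6 in M-Shp2-/- cells and 150.3, 114 and 135 with SHP099. Wild-type replicate 3 exceeded every SHP099 library in this gene. H2-Q7 (ENSMUSG00000060550, chr17:35439155-35443773) measured 86.9, 103 and 242 FPKM in wild type, 61.8, 68.7 and 74.9 in M-Shp2-/- cells and 173, 160.2 and 195 with SHP099. In H2-Q7 all M-Shp2-/- libraries were below all wild-type libraries, while wild type and SHP099 overlapped through wild-type replicate 3.

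H2-M3, H2-T22 and H2-T23 are nonclassical genes outside the Q cluster. H2-M3 presents peptides that begin with formylmethionine, as bacterial and mitochondrial proteins do. H2-M3 (ENSMUSG00000016206, chr17:37270220-37274484) measured 39.4, 41.8 and 68.6 FPKM in wild type, 39.5, 41.7 and 44.5 in M-Shp2-/- cells and 70.0, 72.0 and 72.5 with SHP099. It was the 1 class I gene in which every SHP099 library was above every wild-type library. H2-T22 (ENSMUSG00000056116, chr17:36037128-36042747), whose product carries no peptide and is bound by some gamma delta T cell receptors, ranged from 35.4 to 64.1 FPKM, highest in wild-type replicate 3. H2-T22 averaged 50.7 ± 13.7 FPKM (SD, n = 3) in wild type, 36.6 ± 1.13 in M-Shp2-/- cells and 60.2 ± 3.93 with SHP099. H2-T23 (ENSMUSG00000067212, chr17:36029773-36032855) encodes Qa-1, which shows leader peptides of other class I chains to the inhibitory receptor CD94/NKG2A. It measured 279, 313 and 456 FPKM in wild type, 261, 293 and 218 in M-Shp2-/- cells and 302, 259 and 353 with SHP099. For H2-T23 the SHP099 libraries overlapped both other groups.

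B2m (ENSMUSG00000060802, chr2:122147686-122153083), the light chain that most heavy chains need to reach the surface, is the 1 gene of the 10 that does not lie on chromosome 17. It measured 4214, 4569 and 5490.0 FPKM in wild type, 3904, 4128 and 3611 in M-Shp2-/- cells and 4336, 4395 and 5422 with SHP099. All M-Shp2-/- libraries were below all others, and wild type and SHP099 overlapped.

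M-Shp2-/- against SHP099 is the contrast that chose the genes, so its values are a description with no test. All 10 were lower on average in M-Shp2-/- cells. H2-Q6 differed most, with a mean 3.21 times as high with SHP099 (log2 difference -1.67), followed on the log2 scale by H2-Q5 and H2-Q7 (each -1.35) and H2-Q4 (-1.11). The differences were -0.76 for H2-M3, -0.74 for H2-K1, -0.70 for H2-T22 and -0.38 for H2-D1. They were smallest for B2m (-0.28) and H2-T23 (-0.24). In 9 of the 10 genes, all but H2-T23, every M-Shp2-/- library was below every SHP099 library, which held for 9.76% of all genes tested. The median log2 difference was -0.75 over the 10 genes and 0.02 over all genes.

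The comparison of M-Shp2-/- cells with wild type asks what loss of SHP2 in myeloid cells did during the IMQ response. It shares its wild-type libraries with the comparison for SHP099, and each shares a group with the contrast that chose the genes. No class I gene passed the thresholds of the study's methods, an adjusted p no higher than 0.005 with a shift of 1 or more on the log2 scale, up or down. With limma the count was 0 of 10 against 0.00873% of all genes, 1 of 11450. That gene was Il6, the cytokine gene, at -2.17 ± 0.09 log2 (adjusted p = 0.00117), named here after its value was seen. At an adjusted p no higher than 0.05 it was again 0 of 10, against 0.0873% of all genes. At an unadjusted p under 0.05 1 of 10 was lower, H2-Q7, against 2.57% of all genes, and limma voom on recovered reads gave the same counts of 0 and 1. The count of 1 depended on the setting. It became 5 without wild-type replicate 1, and 3 with all 9 libraries in 1 fit or with replicate number as a block. It became 0 with no filter on FPKM and without any 1 M-Shp2-/- library. In 2 of 10, H2-Q7 and B2m, every M-Shp2-/- library was below every wild-type library, against 3.07% of all genes.

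All 10 log2 fold changes in M-Shp2-/- cells were negative, with a median of -0.40 where the median of all genes was 0.15, except that H2-D1 reached 0.00 under quantile normalization. H2-Q7 had -0.92 ± 0.36 (SE, n = 3 per group, adjusted p = 0.467) and H2-Q6 -0.91 ± 0.55 (adjusted p = 0.518). H2-Q5 followed with -0.65 ± 0.31 (adjusted p = 0.479). B2m had -0.29 ± 0.14 (adjusted p = 0.48). The other 6 lay between -0.42 for H2-T22 and H2-T23 and -0.13 for H2-D1, with adjusted p from 0.478 to 0.726. Without wild-type replicate 3 the values moved toward 0. H2-Q7 was then -0.47 ± 0.13 (adjusted p = 0.619), H2-Q6 -0.23 ± 0.20 (adjusted p = 0.864), H2-D1 0.05 ± 0.12 (adjusted p = 0.959) and H2-M3 0.04 ± 0.09 (adjusted p = 0.956). The median over the 10 was -0.19 and that of all genes 0.08. None of the 10 passed either threshold without that library, where 0% of all genes were called and 0.0437% had an adjusted p no higher than 0.05. Those 5 genes were Il6, Gm47283, Il1a, Il1b and Ptpn11, all but Ptpn11 named after their values were seen. H2-Q7 alone was lower at an unadjusted p under 0.05, against 2.40% of all genes, and H2-Q7 and B2m kept all M-Shp2-/- libraries below wild type, against 5.39%.

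SHP099 against wild type asks what blocking the phosphatase with a drug did to the same IMQ response. With all 6 libraries, limma called 0 of 10 class I genes, against 0.166% of all genes, 19 of 11450. Of those 19 genes, 4 were higher (Nr1d2, Gm17586, Tef and Gsto1, named after their values were seen) and 15 lower. At an adjusted p no higher than 0.05 the class I count was also 0, against 6.96%. H2-Q4, H2-Q5 and H2-M3 were higher at an unadjusted p under 0.05, 3 of 10 against 20.6% of all genes, and voom gave 0 called and 3 likewise, while after median-of-ratios scaling the 3 became 0. H2-M3 alone had all SHP099 libraries above all wild-type libraries, 1 of 10 against 27.9% of all genes. Log2 fold changes were 0.76 ± 0.52 for H2-Q6 (SE, n = 3 per group, adjusted p = 0.4), 0.75 ± 0.27 for H2-Q4 (adjusted p = 0.14) and 0.71 ± 0.30 for H2-Q5 (adjusted p = 0.184). H2-M3 had 0.55 ± 0.20 (adjusted p = 0.132) and H2-Q7 0.43 ± 0.35 (adjusted p = 0.479). H2-K1, H2-T22 and H2-D1 had 0.35, 0.28 and 0.25, and H2-T23 and B2m -0.18 and -0.01, with adjusted p from 0.369 to 0.974. The median was 0.39 over the 10 genes and 0.13 over all genes. It depended on the wild-type libraries: without replicate 1 both medians were 0.16, without replicate 2 they were 0.29 and 0.16, and without replicate 3 they were 0.71 and 0.06.

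Without wild-type replicate 3, 6 of the 10 class I genes had an adjusted p no higher than 0.05 with SHP099, against 11.1% of all genes, by a setting chosen after the data were seen. All 6 were higher, while of all 11450 genes 807 were higher and 466 lower. The class I genes were H2-M3 at 0.80 ± 0.07 (SE, 3 libraries against 2, adjusted p = 0.00552), H2-Q4 at 1.09 ± 0.10 (adjusted p = 0.0062), H2-Q6 at 1.44 ± 0.14 (adjusted p = 0.00853), H2-Q5 at 1.07 ± 0.13 (adjusted p = 0.0122), H2-Q7 at 0.88 ± 0.12 (adjusted p = 0.0133) and H2-K1 at 0.61 ± 0.12 (adjusted p = 0.0323). H2-D1 had 0.43 ± 0.11 (adjusted p = 0.0597) and H2-T22 0.46 ± 0.14 (adjusted p = 0.0949). H2-T23 (0.03 ± 0.14, adjusted p = 0.908) and B2m (0.10 ± 0.14, adjusted p = 0.697) stayed near 0. None was called at the stricter thresholds with limma, against 0.227% of all genes. In 8 of 10 genes every SHP099 library was above both remaining wild-type libraries, against 32.1% of all genes, and the same number were higher at an unadjusted p under 0.05, against 19.9%. The median was 0.71 over the 10 genes and 0.06 over all genes. Leaving out any other single library gave 0 of 10 at an adjusted p no higher than 0.05. The genes were chosen by a contrast that holds the same SHP099 libraries. Wild-type replicate 3 was singled out because the class I genes were highest in it among the wild-type libraries. The count of 6 is therefore a description and not a test of the class I genes. The difference between the 2 sets of fold changes against wild type was not tested.

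**Figure D3:**
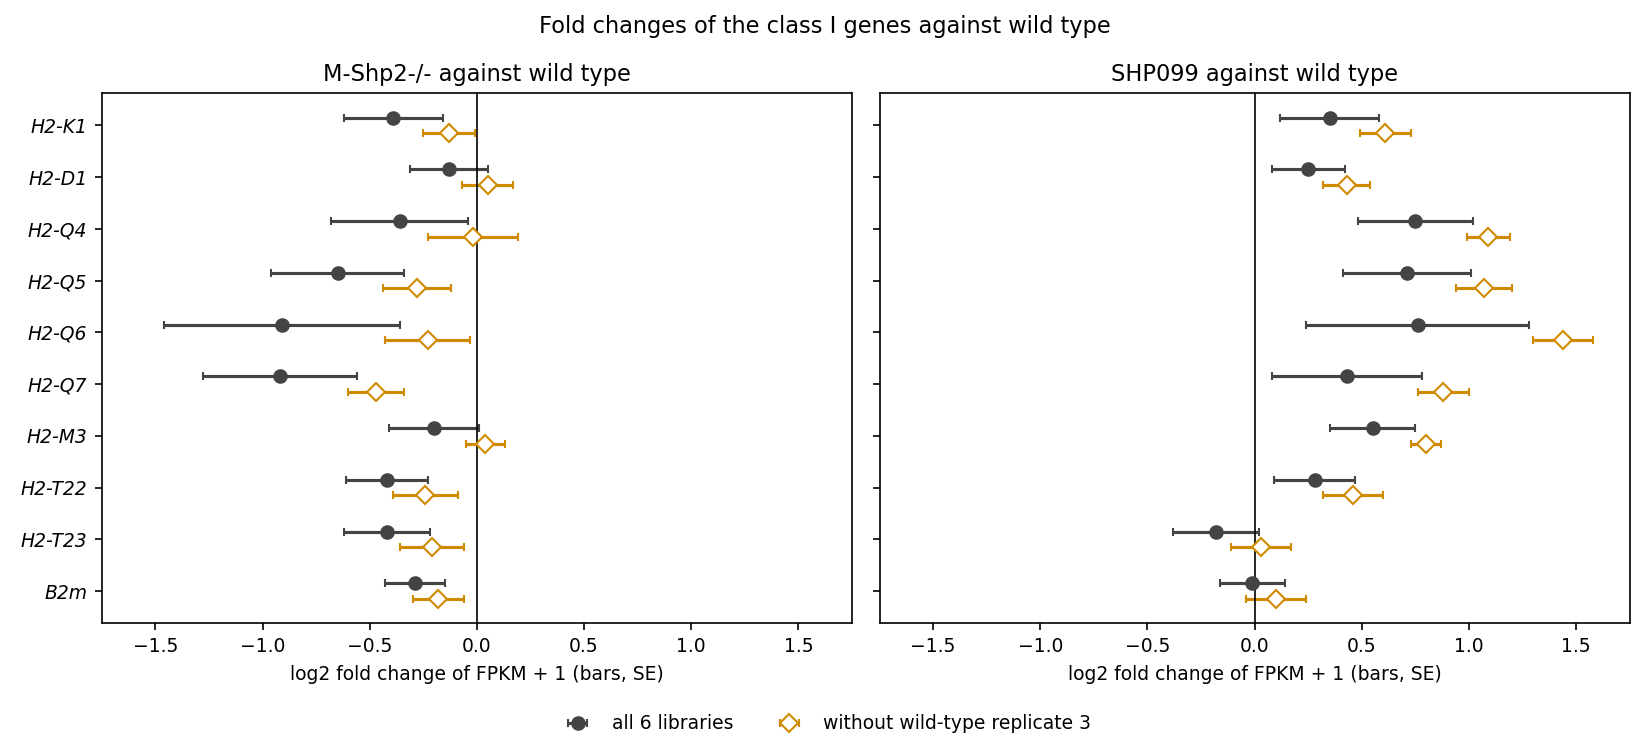
Log2 fold change of FPKM + 1 for each class I gene, M-Shp2-/- against wild type on the left and SHP099 against wild type on the right, with bars for the SE. Filled circles use all 6 libraries and open diamonds leave out wild-type replicate 3, which moves H2-Q6 with SHP099 from 0.76 to 1.44.

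The values also depend on scaling. Median-of-ratios scaling moved the median of all genes from 0.15 to 0.01 in M-Shp2-/- cells and from 0.13 to 0.00 with SHP099. Relative to the median of all genes, the median of the class I genes was -0.55 in M-Shp2-/- cells as deposited and -0.57 after that scaling. With SHP099 it was 0.26 and 0.25. All 10 genes lay below the median of all genes in M-Shp2-/- cells under both scalings, and with SHP099 8 of 10 lay above it. At an adjusted p no higher than 0.05 with SHP099, 521 genes were higher and 276 lower as deposited, against 200 and 375 after median-of-ratios scaling. The called genes split 4 to 15 as deposited and 1 to 13 after it.

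The 4 H2-Q genes resemble each other in sequence, as do other class I genes. Of all 50-base stretches in the annotated transcripts of H2-Q5, 36.4% also occurred exactly in another gene, 25.5% in H2-Q7. The share was 36.4% for H2-Q4, 35.0% for H2-Q6 and 26.5% for H2-Q7. It was highest for H2-T22, at 53.5%, with 31.2% shared with H2-T10, and 26.5% with A930015D03Rik, an antisense gene. H2-M3 and B2m shared 0.6% and 0.0%, and H2-K1, H2-D1 and H2-T23 9.6%, 12.8% and 14.5%. How reads that match several genes were assigned is not given in the sources used here, and its part in the values was not tested.

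**Figure D4:**
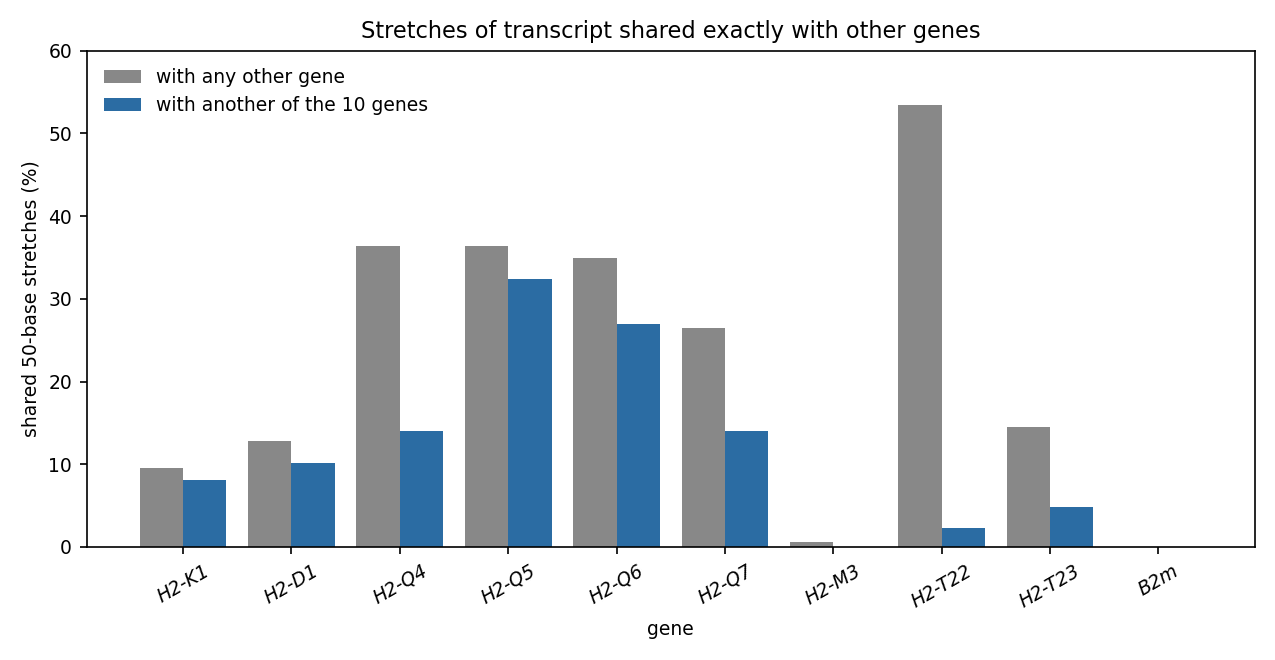
Percent of the 50-base stretches of each gene's annotated transcripts that occur exactly in any other gene (grey) or in another of the 10 genes (blue). H2-T22 shares 53.5% and B2m 0.0%.

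Summing reads over H2-Q4, H2-Q5, H2-Q6 and H2-Q7 gives a level that does not depend on how reads were divided among these 4. Per 1000000 reads the sums were 493, 587 and 1351 in wild type, 413, 429 and 579 in M-Shp2-/- cells and 1164, 1051 and 1230.4 with SHP099. In these sums wild-type replicate 3 was the highest, the SHP099 libraries came next and the rest were lower. Of the 4 genes, H2-Q6 and H2-Q7 had this order, while SHP099 replicate 3 was the highest in H2-Q4 and H2-Q5. Over all 9 heavy chains the sums were 10001, 10819.7 and 16569 in wild type, 10063, 10301 and 10117 in M-Shp2-/- cells and 14557, 14640.1 and 15499.5 with SHP099. The M-Shp2-/- libraries lay within the span of wild-type replicates 1 and 2, and the SHP099 libraries between wild-type replicates 2 and 3. Exons of H2-Q4 overlap those of Gm11131 on the opposite strand over 496 bases, and Gm11131 had a mean of 1.19 FPKM. Exons of H2-T22 overlap A930015D03Rik on the opposite strand over 1003 bases, and that gene had a mean of 0.0440 FPKM.

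The chromosome 17 region from H2-K1 to H2-M3, chr17:33996017-37274484, spans 3.28 Mb and holds 264 other genes of the table, class I heavy chains left out. Of the 86 that were tested, limma found 0 at an adjusted p no higher than 0.05 in M-Shp2-/- cells, with 10 at an unadjusted p under 0.05, 4 higher and 6 lower, where all 11450 genes gave 910 higher and 294 lower. Of the 6 lower genes, 4 (Tap1, Tap2, Psmb8 and Psmb9) are also counted among the loading and processing genes and were named after their values were seen. The median of the 86 was 0.06, against 0.15 for all genes, with 54 positive and 32 negative. With SHP099, 4 of the 86 had an adjusted p no higher than 0.05, against 6.96% of all genes, and the names were read after the values were seen. Rxrb rose by 0.49 (adjusted p = 0.0245) and Neu1 by 0.36 (adjusted p = 0.0496). Ier3 fell by 0.80 (adjusted p = 0.0268) and Clic1 by 0.35 (adjusted p = 0.0444). The count was 12 without wild-type replicate 3, 7 higher and 5 lower, against 11.1% of all genes. The median of the 86 with SHP099 was 0.13, the same as for all genes. Between M-Shp2-/- and SHP099 it was -0.07, with 37 positive and 49 negative. Every M-Shp2-/- library was below every SHP099 library in 18 of the 86, against 9.76% of all genes, and above in 3, against 905 of 11450. The 18 include Tap1, Tap2, Psmb8 and Psmb9 again, and Gm11131, whose exons overlap those of H2-Q4. Wild-type replicate 3 was the highest of the wild-type libraries in 32 of the 86.

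Other class I and class I-like heavy chains were mostly silent. Of 23 genes, 7 were at 0 in all 9 libraries and 8 passed the filter. None of the 8 had an adjusted p no higher than 0.05 by limma with all libraries. At an unadjusted p under 0.05 the count was 0 in M-Shp2-/- cells and 5 with SHP099, 3 higher and 2 lower, where all 11450 genes gave 2356 higher and 705 lower. Their medians were 0.09 in M-Shp2-/- cells and 0.24 with SHP099, against 0.15 and 0.13 for all genes. H2-M2 (ENSMUSG00000016283, chr17:37480851-37483552) was the most abundant, from 29.3 to 59.4 FPKM. Its SHP099 libraries were all below wild type, at -0.43 ± 0.14 (adjusted p = 0.102). Without wild-type replicate 3, H2-Q1 (1.86 ± 0.41, adjusted p = 0.0418) and H2-T10 (0.57 ± 0.11, adjusted p = 0.029) were higher with SHP099. They were named after their values were seen. H2-Q1 measured 2.89, 3.29 and 6.86 FPKM in wild type and 14.5, 7.64 and 23.6 with SHP099, without overlap.

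The 13 genes for cutting, transporting and loading peptides were all tested. With limma in M-Shp2-/- cells, 0 of 13 had an adjusted p no higher than 0.05 and 7 had an unadjusted p under 0.05, all lower, against 2.57% of all genes. Those 7 also had every M-Shp2-/- library below every wild-type library, against 3.07% of all genes. The median over the 13 was -0.38, and -0.22 without wild-type replicate 3. With SHP099 the median was -0.01, and 0.25 without that library. Tapbpl, a peptide editor related to tapasin, rose with SHP099 by 0.80 ± 0.18 (adjusted p = 0.0484), from 20.9, 20.8 and 32.2 FPKM in wild type to 46.8, 37.0 and 44.8. It was the 1 gene of the 13 with an adjusted p no higher than 0.05, against 6.96% of all genes. Tapbp, which encodes tapasin, the bridge between empty class I molecules and the peptide transporter, was the most abundant, with 737 ± 129 FPKM (SD, n = 3) in wild type. Tapbp had -0.14 ± 0.15 in M-Shp2-/- cells (adjusted p = 0.655) and 0.16 ± 0.15 with SHP099 (adjusted p = 0.545). Without wild-type replicate 3, 1 of the 13 was higher and 2 were lower with SHP099 at that threshold, against 11.1% of all genes. Tapbpl was higher (1.00 ± 0.11, adjusted p = 0.0111). The chaperone genes Calr (-0.85 ± 0.12, adjusted p = 0.0159) and Pdia3 (-0.58 ± 0.09, adjusted p = 0.0202) were lower, named after their values were seen.

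Of 9 genes for factors that drive class I transcription, limma placed 0 at an adjusted p no higher than 0.05 in either comparison with all libraries. At an unadjusted p under 0.05, 2 were lower in M-Shp2-/- cells, and 2 were higher and 1 lower with SHP099. Of all genes 2.57% were lower in M-Shp2-/- cells, and with SHP099 20.6% were higher and 705 of 11450 lower. The medians were -0.22 in M-Shp2-/- cells and 0.22 with SHP099. The 2 in M-Shp2-/- cells became 0 without wild-type replicate 3, and the medians were then -0.04 and 0.35. Irf1, an interferon-induced factor, was the most abundant. It measured 249, 286 and 1062 FPKM in wild type, 190.3, 239 and 341 in M-Shp2-/- cells and 561, 511 and 673 with SHP099. Wild-type replicate 3 was the highest Irf1 library and the SHP099 libraries lay between it and the other two wild-type libraries. Irf1 had -0.76 ± 0.55 in M-Shp2-/- cells (adjusted p = 0.556), which became -0.10 without wild-type replicate 3, and 0.45 ± 0.51 with SHP099 (adjusted p = 0.627). Without wild-type replicate 3, Irf1 (1.11 ± 0.13, adjusted p = 0.0118), Rela (0.48 ± 0.09, adjusted p = 0.0272) and Irf2 (0.42 ± 0.08, adjusted p = 0.0321) were higher with SHP099. Rela and Irf2 were named after their values were seen.

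Interferon-response genes, the antiviral program that class I transcription often follows, did not pass the test in either group with all libraries. In M-Shp2-/- cells all 18 log2 values were negative, with a median of -1.08, and limma found 0 at an adjusted p no higher than 0.05 and 9 lower at an unadjusted p under 0.05, against 2.57% of all genes. In 9 of the 18 every M-Shp2-/- library was below every wild-type library, against 3.07%. With SHP099, 17 of 18 were negative, with a median of -0.81, 0 at an adjusted p no higher than 0.05 and 5 lower at an unadjusted p under 0.05, against 705 of all 11450 genes. Without wild-type replicate 3 the medians were -0.62 and -0.21. The antiviral genes Oasl1 (-1.18 ± 0.25, adjusted p = 0.0377) and Usp18 (-1.05 ± 0.24, adjusted p = 0.047) were then lower with SHP099, named after their values were seen. Gbp2, a guanylate-binding protein gene, was the most abundant of the list. It measured 169, 174 and 419.7 FPKM in wild type, 113, 151 and 178 in M-Shp2-/- cells and 285, 194 and 402 with SHP099. In the SHP099 libraries the class I median against wild-type replicates 1 and 2 was 0.71, while that of the interferon-response genes was -0.21. That difference between lists was not tested.

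**Figure D5:**
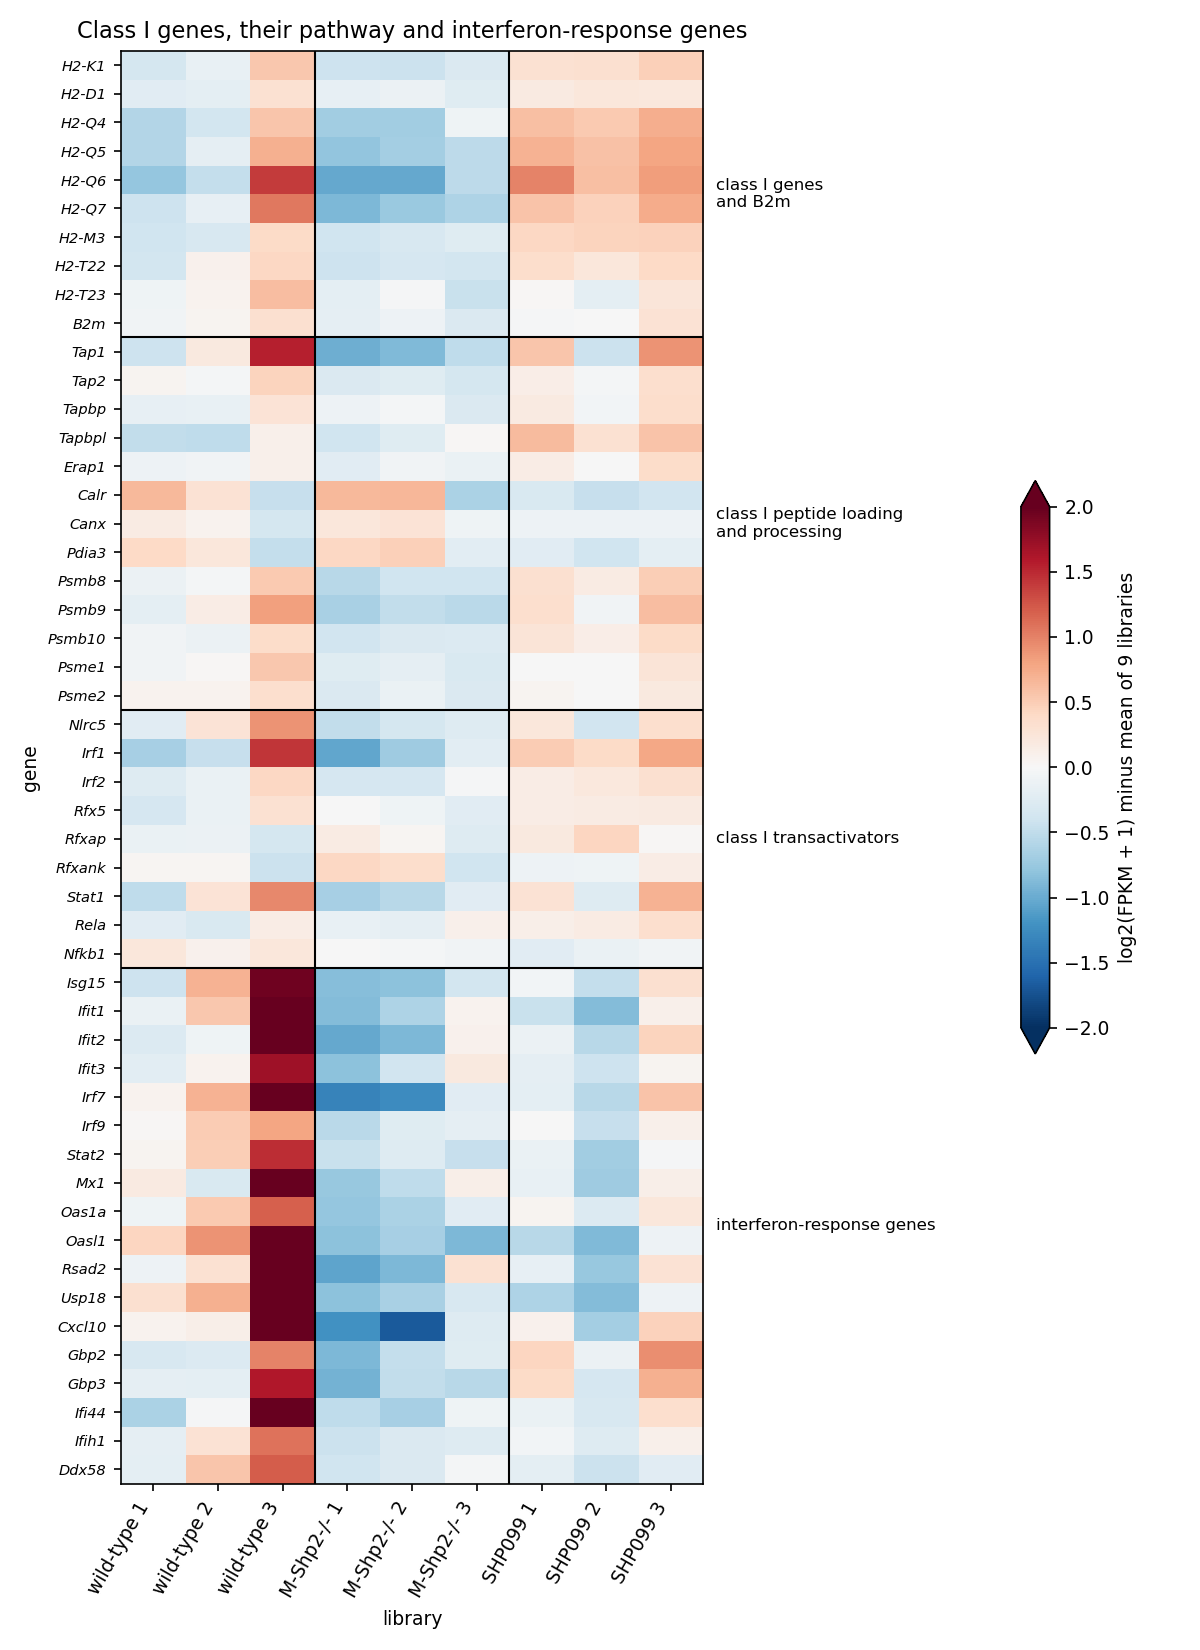
Log2(FPKM + 1) minus the mean of the 9 libraries for the class I genes, loading and processing genes, transactivators and interferon-response genes, with 1 column per library and colours saturating at 2 in either direction. All 18 interferon-response genes are highest in wild-type replicate 3.

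Of 9 genes for receptors that recognise class I molecules, on macrophages or on other cells, 5 passed the filter. Klra2, a Ly49 receptor gene, fell with SHP099 by 1.12 on the log2 scale (SE 0.22, adjusted p = 0.0346), from 6.73, 6.73 and 5.98 FPKM in wild type to 2.42, 1.56 and 3.67. In M-Shp2-/- cells Klra2 measured 4.19, 4.31 and 2.63, also below every wild-type library (-0.69 ± 0.18, adjusted p = 0.448). Lilr4b, an immunoglobulin-like receptor gene, was the most abundant, at 510.2 FPKM on average in wild type, 584 in M-Shp2-/- cells and 641 with SHP099. Of the 5, limma placed 0 in M-Shp2-/- cells at an adjusted p no higher than 0.05 and 1, lower, at an unadjusted p under 0.05, against 2.57% of all genes. With SHP099 the counts were 1, which is Klra2, against 6.96%, and 2 higher and 2 lower, where all 11450 genes gave 2356 higher and 705 lower. The 2 higher became 1 without wild-type replicate 3.

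To compare other genes with the class I pattern, the log2 values of the 10 genes were standardized over the 9 libraries and averaged. The average was -0.78, -0.29 and 1.33 in wild type, -0.81 and -0.86 in M-Shp2-/- replicates 2 and 3, lower than any of these in M-Shp2-/- replicate 1, and 0.74, 0.58 and 1.09 with SHP099. Among 11440 other genes, those with the highest Pearson correlation to it over the 9 libraries were Nmi (0.982), Psmb10 (0.970), Psmb8 (0.965), Parp10 (0.962) and Gm17334 (0.962). These 9 points share groups, so the correlations are a description. Nmi encodes a partner of STAT factors, and Psmb8 and Psmb10 encode subunits of the immunoproteasome, which cuts proteins into peptides for class I molecules. Psmb8 measured 74.6, 78.6 and 116 FPKM in wild type, 54.4, 61.2 and 60.7 in M-Shp2-/- cells and 101, 90.0 and 114 with SHP099. In Psmb8 and Psmb10 every M-Shp2-/- library was below every wild-type library, at -0.57 ± 0.18 (adjusted p = 0.454) and -0.38 ± 0.14 (adjusted p = 0.465), and -0.38 and -0.22 without wild-type replicate 3. Gm17334 lies within the span of Irf1, at chr11:53772281-53773187.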

How the data were processed

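RNA from 9 libraries of mouse peritoneal macrophages was read as the FPKM values that the authors deposited. By the submitters' processing notes, paired-end reads were aligned with HISAT2 2.0.4 and counted per gene with HTSeq 0.9.1. The genome build, annotation, strand setting, treatment of reads matching several genes and the tool that made the FPKM are not given in the sources used here. The authors ran DESeq on counts, which are not in the deposited table. Here limma 3.58.1 in R 4.3.3 was fitted to log2(FPKM + 1) of genes with a mean of at least 1 FPKM over the 9 libraries, with a trended prior, separately for each group and wild type. P-values were adjusted by Benjamini-Hochberg over all genes tested. Genes were called by an adjusted p no higher than 0.005 with a shift of 1 or more on the log2 scale, up or down. Symbols came from GENCODE M21, which lacked 353 of the 54059 genes. Reads were recovered from the smallest steps between values: 96.2% to 96.7% of values of at most 50 reads were within 0.05 reads of a whole number, where 10.0% would be by chance. The alternatives were other pseudocounts (0.1, 5), filters (none, 5 FPKM), scalings, priors, all 9 libraries in 1 fit, replicate number as a block, limma voom, an adjusted p of 0.05, and each library left out. The fit was also tested on simulated data. Besides the 10 genes and Ptpn11, the text names from each list the genes with an adjusted p no higher than 0.05 and the most abundant one, genes with overlapping exons and the 5 most alike in pattern. Others are said to be named after their values were seen. The result of 1 gene that this rule takes, and the marker sum it enters, are not reported here. The genes and lists were chosen with earlier results of these data known. A second deposited table, of gene spans, holds no measurement and was not used.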

Additional observations from a re-analysis of the deposited data

How the results depend on the processing

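The count of class I genes called was 0 in both comparisons under each alternative run. Of 320 log2 fold changes of single class I genes under the alternatives, 312 kept their direction and their side of the threshold and 8 changed sign. In M-Shp2-/- cells H2-D1 was -0.13 and became 0.00 under quantile normalization, with a range of -0.22 to 0.05 when each library was left out in turn. H2-M3 was -0.20, with a range of -0.35 to 0.04. With SHP099, H2-T23 was -0.18, with a range of -0.32 to 0.03, and B2m was -0.01, became 0.08 under quantile normalization and ranged from -0.12 to 0.10. The changes of sign came without wild-type replicate 3 for each of these genes, and for B2m also without SHP099 replicate 1 or 2.

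The number of genes called in M-Shp2-/- cells was 1. It was 10 at an adjusted p no higher than 0.05, 3 after median-of-ratios scaling, 2 with all 9 libraries in 1 fit, and 0 with no filter on FPKM, without the trended prior, with the replicate block, and without any 1 library (range 0 to 0). With SHP099 it was 19, and became 797 at an adjusted p no higher than 0.05, 9 with limma voom, 4 without the trended prior, 0 with no filter on FPKM and 0 with the replicate block. It ranged from 0 to 26 when each library was left out, with 4 without wild-type replicate 1, 5 without wild-type replicate 2, 26 without wild-type replicate 3 and 0 without any 1 SHP099 library.

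At an adjusted p no higher than 0.05, a setting joined to leaving out libraries after the data were seen, 10 genes in M-Shp2-/- cells ranged from 1 to 8, with 8 without M-Shp2-/- replicate 3. With SHP099, 797 genes ranged from 47 without SHP099 replicate 2 to 1273 without wild-type replicate 3. The class I count was 0 in M-Shp2-/- cells in each case (range 0 to 0). With SHP099 it ranged from 0 to 6, the 6 coming without wild-type replicate 3. The cause was not tested. After median-of-ratios scaling no class I gene had an unadjusted p under 0.05 with SHP099, against 3 as deposited.

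Replicate numbers were checked for pairing between groups. After removing group means, libraries of the same number correlated from -0.43 to 0.49 between M-Shp2-/- and wild type and from -0.09 to 0.45 between SHP099 and wild type, so the numbers gave no common pairing. With the replicate block, 2 genes in M-Shp2-/- cells and, with SHP099, 338 higher and 253 lower genes had an adjusted p no higher than 0.05, none of them class I.

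With 3 libraries per group, 1 library can move a group's mean and SE together, as wild-type replicate 3 did. Replicates correlated from 0.954 to 0.992 on the log2 scale over genes. The squared differences between their reads were 18.3 to 192 times those of counting error alone (chi-square per degree of freedom). The part of depth in the precision was not tested. Shared sequence between the class I genes, the unknown handling of reads matching several genes, and the lack of an unstimulated group limit what the levels can be compared with. Where a group was left with 2 libraries, limma assumed the same variance in both groups.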
